A study of Rattus norvegicus with 24 samples.

Results

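The genes for the proteins of the cytosolic ribosome were followed in the dorsal striatum of 24 male Sprague Dawley rats, each read on 1 Affymetrix rat transcriptome array. The array reports transcript clusters, which are sets of probes assigned to 1 transcribed locus. Coding clusters were taken whose first gene symbol starts with Rpl or Rps and a digit, or is Rplp0, Rplp1, Rplp2 or Rpsa, with the Rps6k kinases left out. This gave 140 clusters of 68842, under 99 symbols, and each symbol was represented by its cluster with the highest mean over the 24 arrays. Of the 99, 74 are the standard proteins of the large (43) or small (31) subunit, 20 carry paralogue names, 4 are pseudogenes or predictions by name, and 1, Rps19bp1, encodes a binding protein of Rps19. The symbols Rpl19 and Rpl37a have no cluster typed as coding in the array annotation and were not analysed here.

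Rats of the shock-resistant (SR, n = 6) and shock-sensitive (SS, n = 6) groups had self-administered methamphetamine (METH) and then received footshocks with part of their reinforced lever presses. SR rats kept taking the drug under punishment, whereas SS rats cut their intake, so this split was made after the behavior. Saline rats yoked to SR (YSR, n = 3) or SS partners (YSS, n = 3) received the shocks of the partner without control over them, and control rats (CT, n = 6) self-administered saline with no shock. Tissue was taken about a month into withdrawal, 1 day after a second test of cue-induced seeking, and the rats on arrays had been chosen for RNA quality.

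Most ribosomal proteins are needed in equal numbers for each ribosome, and excess copies are degraded. Their mRNAs are among the most abundant of a cell and start with a run of pyrimidines, the 5′ terminal oligopyrimidine (TOP) motif, through which the mTOR pathway controls how much of the mRNA is translated. In neurons ribosomes occur in cell bodies and dendrites, where local protein synthesis takes part in lasting synaptic change. An array of total RNA measures the amount of these mRNAs and not their translation.

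The start sites of the standard genes carried a pyrimidine run in a larger share than promoters at large. Runs were counted together with bases before the start, which are not part of the mRNA. Their shares and lengths thus do not measure the TOP motif itself. RefSeq promoters (build GRCr8) were found for 59 of the 74 genes, with 250 bases before and 50 bases from the start. A run of at least 5 C or T that includes the start base was present in 37 of 59 (62.7%), against 3018 of 27457 promoters of all genes (11%), and a run of at least 8 in 50.8%, against 4.38%. A C stood at the start base in 54.2% of the members and 24.2% of all promoters. The windows below cover 15 bases on either side of the boundary before the start base, 5′ to 3′ on the strand of the gene, and capitals mark the longest C or T run that touches the 10 bases around the start. The first 5 genes have a run over the start base. They include the gene that varied most like the others (Rpl34), the stalk genes Rplp0 and Rplp1, and Rpl17 and Rps18, which return in the comparisons. In the last 3 genes no run of 5 or more touches the bases around the start.
Rpl34, chr2:221962269-221962298, minus strand: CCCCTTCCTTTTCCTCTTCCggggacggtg
Rplp0, chr12:46718376-46718405, minus strand: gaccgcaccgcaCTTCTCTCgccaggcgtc
Rplp1, chr8:71290858-71290887, minus strand: gcaggcgcatgtgaTCCTTTCCTCagctgc
Rpl17, chr18:70856261-70856290, plus strand: tagccttcgcgCTTCCTCTTCCTgttagcg
Rps18, chr20:4933730-4933759, plus strand: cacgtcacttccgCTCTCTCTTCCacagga
Rplp2, chr1:205975906-205975935, plus strand: cctttcgccgCCggacgccgccgaggtcgc
Rpl36, chr9:1533765-1533794, plus strand: ctgtccggccgCCatcggaaagctgcaggt
Rps16, chr1:92770643-92770672, plus strand: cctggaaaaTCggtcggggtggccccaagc

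The run, with its bases before the start, was 20 bases long in Rpl34, 12 in Rpl17, 11 in Rps18, 10 in Rplp1 and 8 in Rplp0. Over the 59 members the longest run near the start had a median of 10 bases and reached 21. On either strand of the 300-base promoter, the ETS core CCGGAAG occurred in 32.2% of members against 9.22% of all promoters, and the Sp1 box GGGCGG in 59.3% against 34.9%. The YY1 core AAGATGGC occurred in 8.47% against 3.44%, and TATAAA in 10.2% against 14.3%. A match describes the letters and not a bound site.

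Expression was defined as in the methods of the study, by a CT mean above that of bioB, a bacterial RNA spiked into every array (9.27 log2 units in CT). By this rule 9755 of 68842 clusters (14.2%) and 64 of the 99 members were expressed. They comprised 31 of 43 standard large-subunit genes, 25 of 31 small-subunit genes, 7 paralogues and Rpl12_predicted. The other 35 lay under bioB, among them 18 standard genes such as Rpl5 (8.96) and Rps26 (9.19), which lay closest below the line, while Rps15al4 (9.41) and Rpl36a (9.59) lay closest above it.

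Which cluster carries a symbol differed between these 2 sets, in part through the rule. Each symbol took its highest cluster, so a symbol with several clusters had more chances to lie above bioB. All 18 standard genes under bioB had 1 coding cluster, with at least 60 probes, placed on the chromosome that RefSeq gives the gene. Of the 56 standard genes above bioB, 34 were read on the chromosome of the gene, 15 on a cluster with no chromosome and 7 on another chromosome (among them Rpl12, Rpl35a, Rpl6, Rps18, Rps24 and Rps29). Their clusters held a median of 60 probes, against 117 for those under bioB, and 23 had 30 probes or fewer. On the chromosome of the gene, the clusters of Rpl12, Rpl13, Rps14 and Rps24 lay under bioB (8.66, 8.84, 6.91 and 7.55 in CT). The count of 56 thus depends on the choice of cluster. Ribosomal protein genes have many processed copies in rodent genomes, and 80 of the 99 chosen clusters name more than 1 symbol, so signal from copies cannot be told apart from that of the gene. Among the 21 symbols with several clusters, these followed each other over the 24 arrays with a median correlation within the symbol from 0.406 in Rps7 to 0.979 in Rps15al4. These are descriptions over the same arrays and, in part, over shared probe targets.

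The arrays were alike in overall level, with medians from 5.11 to 5.32 log2 units, and all 11 measured striatal neuron markers were expressed in CT. Markers of neighboring tissue varied. The mean of 15 choroid plexus markers ran from 5.94 to 9.94 in SR, 6.45 to 10.6 in SS, 6.61 to 11.5 in YSR, 6.03 to 8.57 in YSS and 6.33 to 11.1 in CT arrays. Kl, one of these markers, lay above bioB in 9 arrays, and the comparisons were repeated without them. No cluster of the array passed an adjusted p of 0.05 in limma with Benjamini-Hochberg adjustment in any of the 8 comparisons of the expressed clusters, where the smallest adjusted p ran from 0.573 to 0.999. In bulk tissue, fewer cells of a type and less RNA per cell cannot be told apart.

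In rats that had taken METH under punishment, the ribosomal protein genes were near the level of CT rats. The 64 expressed members had a median log2 fold change of -0.03 in SR against CT and of -0.02 in SS against CT. The values lay between -0.21 and 0.16 in SR against CT and between -0.24 and 0.29 in SS against CT. The median over all 9755 expressed clusters was -0.04 for SR and 0.04 for SS. In SR rats 23 members and in SS rats 25 members were above CT. The large-subunit genes had medians of -0.03 in SR and -0.03 in SS, and the small-subunit genes -0.05 in SR and -0.01 in SS. Against CT, SR rats were higher in 0 of 5 blood (median -0.44) and 3 of 11 striatal neuron markers (-0.35). They were higher in 12 of 15 choroid plexus markers (0.20). SS rats were higher than CT in 0 of 5 blood (-0.28) and 4 of 11 striatal neuron markers (-0.11). All 15 choroid plexus markers were higher in SS (1.18). The part of these markers in the values of the members was not tested.

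No member reached the criterion of the study (unadjusted p under 0.05 with 1.7-fold) in SR against CT or in SS against CT, where 0.226% and 0.0308% of expressed clusters did. At an unadjusted p under 0.05 limma called 1 of 64 members in SR against CT, with 3.95% of expressed clusters called, and 0 of 64 in SS against CT, with 1.62% called. The 95% interval of the fold change lay within 1.7-fold in either direction for 64 of 64 members in both comparisons, as it did for 90.5% of expressed clusters in SR and 92.0% in SS. These intervals bound the difference and do not show that it is 0.

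The 1 member was Rpl17, a protein at the exit of the tunnel of the large subunit. Its log2 signal was 13.26 at the lowest, 13.40 at the median and 13.45 at the highest in SR rats, against 13.39, 13.57 and 13.82 in CT rats. Of the 6 SR values, 2 lay below all CT values, and the groups overlapped. SR averaged 13.37 ± 0.06 and CT 13.58 ± 0.15 (SD, n = 6 each), a difference of -0.21 (SE 0.079, 1.15-fold), with an exact permutation p of 0.0108 and an adjusted p of 0.768 in limma. With each array centred on its median the difference was -0.16 (unadjusted p of 0.053).

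In SS against CT the smallest unadjusted p-values belonged to Rpl18, Rpl27-l1 and Rpl27, none under 0.05. Rpl27-l1, a paralogue by name, had 11.18, 11.60 and 11.66 as lowest, median and highest log2 signal in SS rats, against 11.59, 11.72 and 12.16 in CT rats. Below every CT array were 3 of 6 SS arrays, and the ranges overlapped. The difference was -0.24 (SE 0.118) with an adjusted p of 0.990 in limma.

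SR and SS rats, which differed in METH intake under shock, did not differ in any member at an unadjusted p under 0.05 in limma, where 2.32% of expressed clusters did, or at the criterion of the study (0.0615%). The median of the 64 members was 0.00 and 32 were higher in SR. All 64 intervals lay within 1.7-fold. The smallest p-values were those of Rpl10a-ps2 (-0.19), Rps15 (-0.21) and Rpl22l2 (0.23), all of which lay under bioB. Leaving out 1 array moved them to -0.11 for Rpl10a-ps2 (without SS4), -0.13 for Rps15 (without SS4) and 0.15 for Rpl22l2 (without SR5). In SR against SS 0 of 15 choroid plexus (median -0.92) and 0 of 5 blood markers (-0.22) were higher in SR. Of the 11 striatal neuron markers 3 were higher (-0.22), and of the 10 oligodendrocyte markers 8 were (0.11). The part of these markers in the values of the members was not tested.

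**Figure D1:**
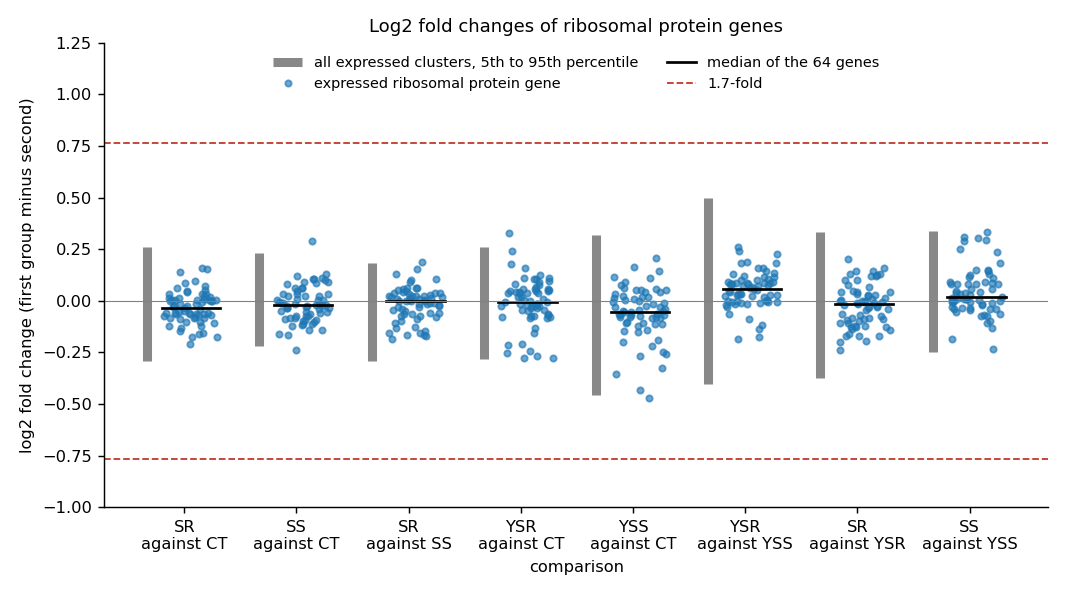
Log2 fold change (vertical axis, first group minus second) of the 64 expressed ribosomal protein genes in 8 comparisons (horizontal axis). Points are genes, black lines their medians, grey bars the 5th to 95th percentile of all 9755 expressed clusters and dashed lines 1.7-fold. Every point lies between the dashed lines, and the widest spread is in YSS against CT.

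Among the comparisons, the lowest value of an expressed member was in YSS against CT. Each yoked group had 3 rats, so its differences from CT spread more by group size alone. In YSS against CT the 64 members had a median of -0.05, where all expressed clusters had 0.01, and 21 members were higher. The range was -0.47 to 0.21. In YSR against CT the median was 0.00 (range -0.28 to 0.33) and 31 members were higher. No member met the criterion of the study in either comparison, with 0.625% of expressed clusters called in YSS and 0.205% in YSR. At an unadjusted p under 0.05 limma called 2 members in YSS against CT (4.89% of clusters) and 1 in YSR against CT (1.63%), all lower in the yoked rats.

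Rplp2, which encodes an acidic stalk protein that recruits translation factors to the ribosome, was 13.20, 13.72 and 13.20 in the 3 YSR rats and 13.50, 13.21 and 13.18 in the 3 YSS rats. In CT rats the lowest, median and highest values were 13.42, 13.63 and 13.81. Under all CT values were 2 of 3 YSR and 2 of 3 YSS values, and both groups overlapped CT. YSR averaged 13.37 ± 0.30 and YSS 13.30 ± 0.18 (SD, n = 3 each), against 13.65 ± 0.15 in CT (SD, n = 6). The difference was -0.28 in YSR (SE 0.129, exact permutation p of 0.0833) and -0.35 in YSS (SE 0.129, exact permutation p of 0.0238), with adjusted p of 0.999 in YSR and 0.887 in YSS in limma. The smallest p that 3 against 6 rats allow is 0.0119. The second Rplp2 cluster gave -0.11 in YSR (SE 0.099) and -0.17 in YSS (SE 0.099), with unadjusted p of 0.293 and 0.108 in limma. The unadjusted p of Rplp2 in YSR exceeded 0.05 without CT2, CT4, CT6, YSR1 or YSR3 (0.058 to 0.216), where the difference ran from -0.45 without YSR2 to -0.19 without YSR3, and in YSS without YSS2 or YSS3 (0.0513 to 0.0623).

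Rpl36, a large-subunit protein, was 13.53, 13.17 and 13.51 in YSS rats, against a lowest of 13.27, a median of 13.87 and a highest of 14.25 in CT rats. YSS2 was under every CT array. The YSS mean was 13.41 ± 0.20 (SD, n = 3) and the CT mean 13.84 ± 0.33 (SD, n = 6), a difference of -0.43 (SE 0.190), with an exact permutation p of 0.0833 and an adjusted p of 0.887 in limma. The unadjusted p exceeded 0.05 without CT1, CT6 or YSS2 (0.057 to 0.161). Rpl38, which in mouse is needed for translation of a set of Hox mRNAs, had the lowest fold change of any expressed member in YSS against CT. It was 13.45, 13.09 and 13.29 in YSS rats, against 13.36, 13.80 and 14.14 as lowest, median and highest in CT rats, a difference of -0.47 (SE 0.231, exact permutation p of 0.0595). Of 64 intervals 61 lay within 1.7-fold, and those of Rpl36, Rpl36al and Rpl38 reached past it on the lower side. The highest value in YSR against CT was that of Rpl6 (0.33, SE 0.193), which was read on a cluster of another chromosome.

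**Figure D2:**
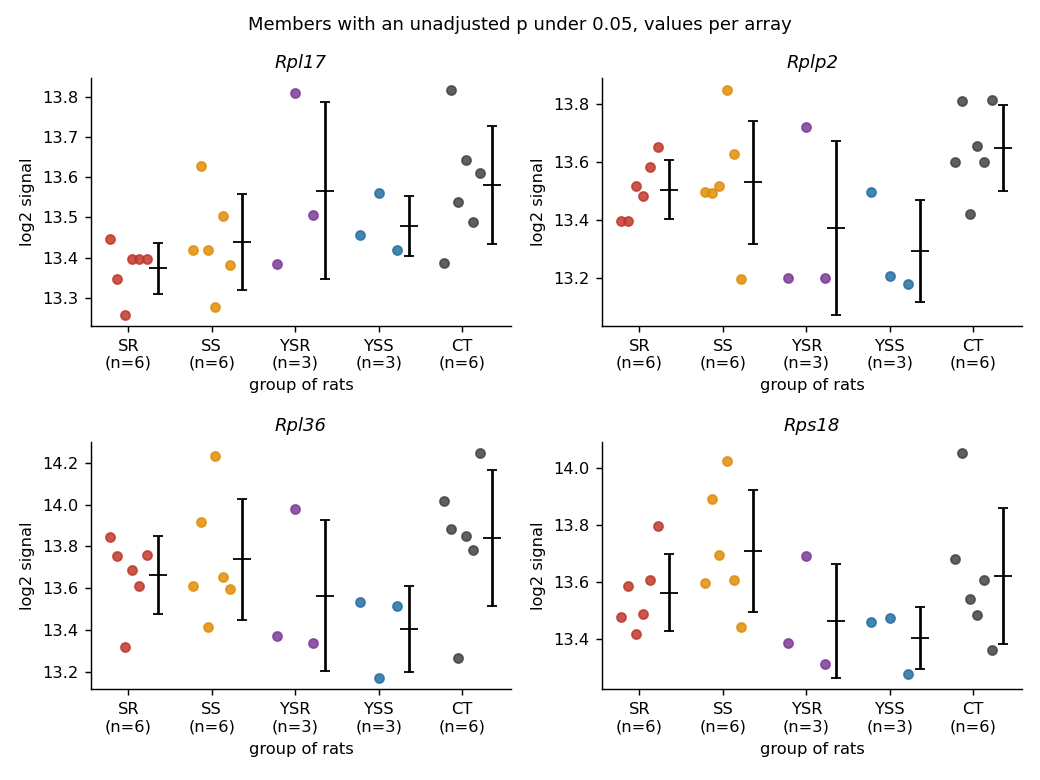
Log2 signal (vertical axes) of Rpl17, Rplp2, Rpl36 and Rps18 in the 5 groups of rats (horizontal axes), with points for arrays and bars for the mean ± SD. In each gene every group overlaps CT, and YSR2 is the highest of the 3 YSR arrays.

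Cell type and tissue markers differed from CT in the yoked rats as well. All 5 measured blood markers were lower in YSS than in CT (median -0.89, 5 at an unadjusted p under 0.05), all 10 oligodendrocyte markers were lower (median -0.58) and 11 of 12 cortex markers were higher (median 0.81). The mean of the blood markers ran from 11.8 to 11.9 in YSS and from 11.4 to 14.1 in CT, that of the oligodendrocyte markers from 11.98 to 13.7 in YSS and 13.3 to 14.0 in CT, and that of the cortex markers from 9.06 to 9.23 in YSS and 7.07 to 8.97 in CT. All 12 microglia markers (median -0.22) and 9 of 11 striatal neuron markers (median -0.40) were lower in YSS than in CT. In YSR against CT all 15 choroid plexus markers were higher (median 2.24) and all 11 striatal neuron markers were lower (median -0.51), with means of the striatal markers from 13.1 to 14.3 in YSR, 13.1 to 14.3 in YSS and 13.3 to 14.6 in CT. Their part in the values of the ribosomal protein genes was not tested. With only the 15 arrays whose Kl lay under bioB, the difference of Rplp2 in YSS against CT was -0.26 (unadjusted p of 0.0649) and that of Rpl36 -0.41 (unadjusted p of 0.082).

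YSR rats, which received more shocks than YSS rats, were compared with them directly. The median of the members was 0.06, where all expressed clusters had -0.02, and 48 of 64 members were higher in YSR. The range was -0.19 to 0.26. No member passed an unadjusted p of 0.05 in limma (4.66% of clusters) or the criterion of the study (1.41%). The intervals of 61 of 64 members lay within 1.7-fold, against 77.2% of expressed clusters, and those of Rpl12, Rpl12_predicted and Rpl38 did not. With 3 rats against 3, an exact permutation test cannot go below 0.10. In the same comparison 15 of 15 choroid plexus (median 2.41), 5 of 5 blood (0.85), 10 of 10 oligodendrocyte (0.66) and 12 of 12 microglia markers (0.34) were higher in YSR, while 2 of 12 cortex markers were (-0.57), and their part in the shift of the members was not tested.

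Compared with their yoked partners, METH rats had nearly the same member levels. The median was -0.02 in SR against YSR (24 of 64 higher, range -0.24 to 0.20) and 0.02 in SS against YSS (41 of 64 higher, range -0.23 to 0.33). No member met the criterion of the study in SR against YSR (1.37% of clusters) or in SS against YSS (0.164%). At an unadjusted p under 0.05 limma called 0 members in SR against YSR (7.36% of clusters) and 1 in SS against YSS (1.85%). In SR against YSR 0 of 15 choroid plexus markers (median -1.96) and 0 of 5 blood markers (-0.37) were higher in SR, and 11 of 11 striatal neuron markers were (0.22), and their part in the values of the members was not tested.

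That member was Rps18, a protein of the head of the small subunit. Its lowest, median and highest log2 signals were 13.44, 13.65 and 14.02 in SS rats, and the 3 YSS rats had 13.46, 13.47 and 13.28. Above every YSS array were 5 of 6 SS arrays. SS averaged 13.71 ± 0.21 (SD, n = 6) and YSS 13.40 ± 0.11 (SD, n = 3), a difference of 0.30 (SE 0.135, exact permutation p of 0.0714), with an adjusted p of 0.987 in limma. The cluster chosen for Rps18 lies on chromosome 10, and the one on chromosome 20, where RefSeq places the gene, gave 0.25 (SE 0.114, unadjusted p of 0.0378 in limma). The unadjusted p of the chosen cluster exceeded 0.05 without SS2, SS4 or YSS3 (0.0686 to 0.140). With the 15 arrays whose Kl lay under bioB it was 0.132, with a difference of 0.28. In this comparison 5 of 5 blood (median 0.66), 15 of 15 choroid plexus (1.42), 10 of 11 striatal neuron (0.35), 10 of 10 oligodendrocyte (0.32) and 11 of 12 microglia markers (0.18) were higher in SS, and 1 of 12 cortex markers was (-0.42), and their part in the value of Rps18 was not tested.

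The difference between the contrasts SR minus YSR and SS minus YSS had a median of -0.07 over the members (all clusters -0.05), with 15 of 64 above 0 and a range of -0.33 to 0.36. No expressed member passed an unadjusted p of 0.05 in limma (3.83% of clusters) or the criterion of the study (1.71%). The intervals were wider here, and 57 of 64 lay within 1.7-fold, against 65.8% of expressed clusters. Rpl12_predicted had the value farthest from 0 (0.36, SE 0.417), which was 0.02 without YSR1, 0.07 without YSS2, 0.63 without YSS3 and 0.69 without YSR2. In the same contrast 0 of 15 choroid plexus (median -3.37), 0 of 5 blood (-1.05) and 0 of 10 oligodendrocyte markers (-0.54) were above 0, and their part in the values of the members was not tested. In the moderated F test over the 5 groups, 0 of 64 members had an unadjusted p under 0.05, with 2.22% of expressed clusters called, and the smallest adjusted p among all expressed clusters was 0.912.

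Members with known separate roles gave the same picture across groups. The stalk base protein gene Rplp0 had group means from 12.01 (YSS) to 12.20 (CT), and its partner Rplp1 from 17.70 (SR) to 17.78 (YSR). Rps6, the S6 kinase substrate whose phosphorylation is widely used as a readout of mTOR activity, had a lowest, median and highest value of 10.57, 10.75 and 10.90 in SR rats and 10.51, 10.69 and 10.85 in SS rats. It was 10.85, 10.84 and 10.66 in YSR rats and 10.79, 10.61 and 10.63 in YSS rats, against 10.60, 10.74 and 10.88 in CT rats. The ranges of all 5 groups overlapped, and the means spanned 0.11. Rps27a, which is made as a fusion with ubiquitin, spanned 0.10 between its lowest and highest group mean, and Rpsa, the laminin receptor protein of the small subunit, 0.082.

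Rps19, which is mutated in human Diamond-Blackfan anemia, spanned 0.051, and Rps14, whose loss in human 5q- syndrome impairs red cell production, 0.19. Rpl10, which joins the large subunit late and sits near the catalytic center, spanned 0.066, and Rps4x 0.21. Rpl5 and Rpl11, which with the 5S rRNA bind Mdm2 and so stabilize p53, lay under bioB and spanned 0.095 and 0.14. The F test of each of these genes had an adjusted p of at least 0.912 in limma, and the lowest unadjusted one of the genes chosen for their role was that of Rplp2 (0.0861).

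Paralogues of standard proteins lay for the most part under bioB, with 7 of the 20 paralogue symbols expressed. Rpl3 spanned 0.057 between group means and its muscle paralogue Rpl3l 0.12, Rpl22 spanned 0.084 and Rpl22l1 0.20, and Rpl7 spanned 0.15 and Rpl7l1 0.14. Rps27 spanned 0.14 and Rps27l, a p53 target in human cells, 0.23, while Rpl39 spanned 0.18 and its testis paralogue Rpl39l 0.20. Rpl10l, the paralogue that serves male germ cells, spanned 0.26. The pair Rpl36a and Rpl36al spanned 0.25 and 0.33. All paralogues named here except Rpl36al lay under bioB, and no F test gave an adjusted p under 0.912.

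The 35 members under bioB were read from the fit of all 68842 clusters. In SR against YSR 2 of them had an unadjusted p under 0.05 in limma, with 6.41% of all clusters called. Rps17l, a paralogue by name, had lowest, median and highest values of 7.09, 7.56 and 7.71 in SR rats, against 7.95, 7.93 and 7.95 in the 3 YSR rats. All 6 SR arrays were below the 3 YSR arrays. The mean was 7.51 ± 0.23 in SR (SD, n = 6) and 7.94 ± 0.01 in YSR (SD, n = 3), a difference of -0.43 (SE 0.125, exact permutation p of 0.0238), with an adjusted p of 0.748 in limma. The YSR values were also above all CT values (lowest 7.56, median 7.68, highest 7.91) and all YSS values (7.64, 7.58 and 7.77), by 0.23 (SE 0.125) and 0.28 (SE 0.145). This cluster had 19 probes, and its SD in YSR is that of 3 arrays.

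Rpl13a-ps1, a pseudogene by name, had a difference of -0.31 in SR against YSR (SE 0.117, exact permutation p of 0.0357, adjusted p of 0.748 in limma), and its unadjusted p exceeded 0.05 without YSR2 or YSR3 (0.0557 and 0.115). In SR against CT 1 member under bioB had an unadjusted p under 0.05 (5.41% of all clusters), namely Rpl18 with a difference of -0.35 (SE 0.155, exact permutation p of 0.0216), which exceeded 0.05 without any 1 of 7 arrays (CT1, CT2, CT4, CT6, SR3, SR5 and SR6, with p of 0.0517 to 0.101). Rpl11 had an unadjusted p of 0.037 in the difference of the 2 yoked contrasts (-0.23, SE 0.103), where 5.16% of all clusters were called, and it exceeded 0.05 without any 1 of 12 arrays (0.0506 to 0.0745). Rps17l had an unadjusted p of 0.0191 in the F test (5.03% of all clusters called, adjusted p of 0.924). None of the 35 met the criterion of the study in any comparison.

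Within groups the members were less variable than the rest of the array. Their SD within groups had a median of 0.175 log2 units (0.0622 in Rpl31 to 0.440 in Rpl12_predicted), against 0.214 over all expressed clusters, and 51 of 64 were below that. The distance between the lowest and highest of the 5 group means had a median of 0.139, against 0.242 over all expressed clusters.

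What spread there was ran in common through the members. Each value was set relative to its group mean, and the 2016 pairs of expressed members had a median correlation of 0.439 over the 24 arrays, with 91.0% above 0 and 40.2% above 0.5. All pairs of expressed clusters had a median of 0.015, with 51.4% above 0 and 13.8% above 0.5. For components, each cluster was instead centred on its mean over the 24 arrays, so differences between groups remained in the values. The first component then held 39.9% of the variance of the members and 26.6% of that of all expressed clusters. These pairs share the same 24 arrays and their normalization, and related genes can share probe targets. With the same centring over 24 arrays, Rpl34 followed the mean of the other members most closely (r = 0.873, n = 24). Rps20 (0.860), Rps13 (0.828) and Rps16 (0.823) were among the next. Rpl29 (0.011) and Rpl4 (0.116) followed it least. The 31 expressed members with the pyrimidine run at the start base had a median r of 0.593, and the 14 expressed members with a promoter but without it had 0.673.

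**Figure D3:**
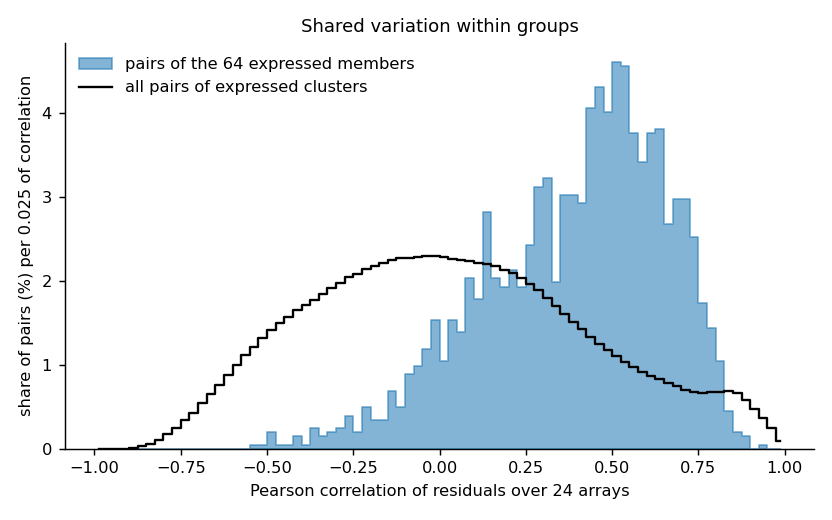
Share of pairs (vertical axis, percent) by Pearson correlation of residuals over 24 arrays (horizontal axis), for the 2016 pairs of expressed members (filled) and all pairs of expressed clusters (line). The member pairs center on 0.439 and all pairs near 0.

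The arrays that were high or low for the members came from all groups. The mean over the 64 members, each centred on its own mean, ran from -0.14 (SR3) to 0.14 (SR6) in SR, from -0.18 (SS6) to 0.20 (SS2) in SS and from -0.15 (CT5) to 0.18 (CT2) in CT. It was -0.06, 0.16 and -0.06 in the YSR rats and 0.02, -0.03 and -0.11 in the YSS rats. In CT2, 58 of the 64 members were above their mean, and in SS6 only 4 were. The groups averaged -0.01 ± 0.10 in SR, 0.00 ± 0.15 in SS, 0.01 ± 0.13 in YSR, -0.04 ± 0.07 in YSS and 0.02 ± 0.11 in CT (SD, n = 6, 6, 3, 3 and 6). Single arrays spread more than means of 3 to 6 arrays by averaging alone, so these ranges are no test of the groups. The arrays with Kl above bioB included high (SS2, YSR2) and low (SS6, YSS3) ones, and the part of choroid plexus RNA in these values was not tested.

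**Figure D4:**
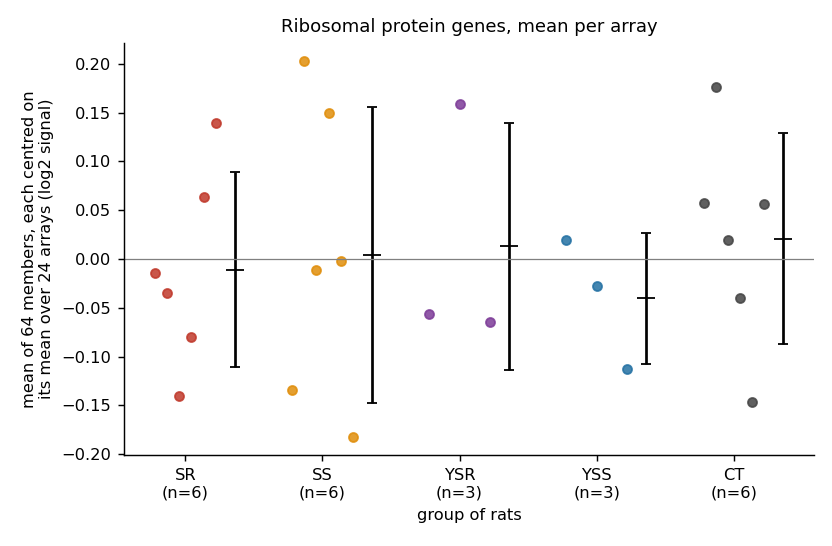
Mean over the 64 expressed members per array (vertical axis, log2 units, each member centred on its mean over 24 arrays) in the 5 groups of rats (horizontal axis), with points for arrays and bars for the mean ± SD. The 6 SS arrays run from -0.18 to 0.20, and the 5 group means lie between -0.04 and 0.02.

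The other genes of the ribosome pathway were read from lists. Unless stated otherwise, the counts cover only the expressed genes of each list. Among proteins of the cytosolic ribosome that carry other names, Fau, which is made as a fusion with a ubiquitin-like sequence, had a difference of 0.01 in SR against CT, and Gnb2l1, the Rack1 scaffold of the small subunit, one of 0.05. Neither had an unadjusted p under 0.05 in any comparison in limma. Of 7 expressed elongation factors 1 was called at an unadjusted p in SR against YSR, with 7.36% of expressed clusters called, and 1 in YSR against YSS, with 4.66% called. Both were Eef1a2, the form of neurons and muscle, with 0.29 in SR against YSR (SE 0.132, adjusted p of 0.654 in limma) and -0.35 in YSR against YSS (SE 0.152, adjusted p of 0.914). Of 22 expressed initiation factors 21 were higher in SR than in CT (median 0.09), 18 in SS (0.06), 16 in YSR (0.06) and 12 in YSS (0.02). Over all expressed clusters the median against CT was -0.039 in SR, 0.035 in SS, -0.004 in YSR and 0.014 in YSS. Genes of a list were read in the same rats, so counts by direction, here and in the lists below, are no test. Eif2s1, the regulated subunit of the ternary complex, was the 1 called at an unadjusted p in SR against CT (0.21, SE 0.097, 3.95% of clusters called), and Eif5 the 1 in SS against YSS (0.16, SE 0.069, 1.85% called).

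Of 16 expressed ribosome biogenesis genes 14 were higher in SR than in CT (median 0.12), 15 in SS (0.09), 10 in YSR (0.03) and 11 in YSS (0.03). At an unadjusted p under 0.05 limma called 5 of 16 in SR against CT and 2 of 16 in SS against CT, all higher, with 2.86% and 1.26% of expressed clusters called as higher. Nolc1, a nucleolar chaperone of small nucleolar ribonucleoproteins, had the smallest p in SR (0.26, SE 0.091, adjusted p of 0.768), and Gnl2, a nucleolar GTPase of large-subunit maturation, in SS (0.20, SE 0.069, adjusted p of 0.990). The other 4 in SR were Nop56 (0.22), Gnl2 (0.15), Gnl3l (0.40) and Brix1 (0.25), and the other in SS was Nolc1 (0.23), named after their values were seen. Other calls at an unadjusted p among these genes were 2 in SR against YSR, with 7.36% of expressed clusters called. There was 1 each in YSS against CT (4.89% called), YSR against YSS (4.66%), SS against YSS (1.85%) and the difference of the yoked contrasts (3.83%). Of 11 expressed mTOR pathway genes 10 were higher in SR than in CT (median 0.11), 11 in SS (0.04), 7 in YSR (0.02) and 8 in YSS (0.06). Such counts of mRNAs, taken without regard to what each gene does in the pathway, do not measure its activity. In SR against CT 2 of the 11 were called at an unadjusted p, with 3.95% of expressed clusters called. They were Akt1 (0.20, SE 0.079) and, named after its values were seen, Pdcd4 (0.31). Mtor was called in SR against YSR (0.23, SE 0.107, 7.36% of clusters called) and Akt1 in SS against YSS (0.23, SE 0.097, 1.85% called). Of 15 expressed mitochondrial ribosomal protein genes 11 were higher in SR than in CT (median 0.07), 12 in SS (0.07), 5 in YSR (-0.02) and 12 in YSS (0.08). Mrps7 (0.24, SE 0.103) was the 1 called at an unadjusted p, in SR against CT, with 3.95% of expressed clusters called. No gene of these lists had an adjusted p under 0.05. With genes under bioB included, 9 of 67 biogenesis genes were called higher at an unadjusted p in SR against CT and 2 of 67 in SS against CT. On that basis 29 of 31 initiation factors, 58 of 67 biogenesis and 20 of 27 mTOR pathway genes were higher in SR than in CT. So were 54 of 72 mitochondrial ribosomal protein genes, and 26054 of all 68842 clusters.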

How the data were processed

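Total RNA of dorsal striatum was hybridised to Affymetrix Rat Transcriptome Array 1.0, 1 array per rat. The authors summarized the arrays with the Affymetrix Expression Console and deposited log2 signals for 70580 rows, whose summarization algorithm and annotation build are not given in the sources used here. The 1738 control rows were left out. A second deposited table gave the annotation. Its group means served only as a check against the group medians of the arrays (median absolute difference 0.01 to 0.012 log2 units). Its SDs of groups and the authors' own fold changes, ANOVA p-values and false discovery rates were not used.

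The 5 groups were fitted as cell means with moderated variances (limma 3.58.1, R 4.3.3, prior of 2.76 degrees of freedom for expressed and 3.79 for all clusters), with Benjamini-Hochberg adjustment over all clusters of the fit. For single members an exact 2-sided test permuted the arrays of the 2 groups. Members named were those of known role, and in each comparison those at the criterion of the study or else the 3 with the smallest unadjusted p, with the largest absolute fold change. Of other lists the gene with the smallest p was named. The members and lists were chosen with earlier results of these data known. On simulated data for SR against CT with 9755 clusters, 88 of 100 changes of 1 log2 unit and 99 of 100 of 2 units were found, with 9 false calls. The noise was drawn for each cluster separately, without the shared variation of the real arrays. Changes of these sizes exceed every difference seen in the members, and only 6 against 6 rats were compared. The simulation therefore gives no power for smaller changes or for the groups of 3 rats. Replicates are separate rats, and their number (3 to 6) limits the precision. Labels do not say that replicate numbers pair rats, so no block was used. Alternatives were quantile normalization, median centring, other filters, fits of 2 groups, no moderation, the mean over clusters of a symbol, a replicate block, arrays with Kl under bioB and leaving out each array. Promoters came from RefSeq (GRCr8). Tables and figures used Python 3.11.15, numpy 2.4.6, pandas 2.3.3, matplotlib 3.10.9 and, in R, the package data.table (1.17.8). Some genes that the naming rule selects are not reported here.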

Additional observations from a re-analysis of the deposited data

Results flagged for a closer look

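In groups of 6 rats, an array was singled out where its gap to the nearest array exceeded 0.625 of the range of the group. Of 126 groups tested, 5 had such an array, and chance alone gives about 1 in 20. Rpl10a-ps2 was highest in SS4 at 4.77, with the nearest SS array at 4.40. Rpl22, an RNA-binding protein of the large subunit, was lowest in SS6 at 9.30, next to 9.55. Rpl27-l1 was also lowest in SS6, at 11.18, next to 11.55. Rpl22l1 was lowest in CT3 at 6.85, next to 7.39, and Rpl39l was highest in CT6 at 5.91, next to 5.43.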

How the results depend on the processing

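The 0 members at the criterion of the study and the 0 members at an adjusted p under 0.05 were found in every comparison under every alternative run, and no named difference changed sign. Counts at an unadjusted p under 0.05 moved. They became 0 in SR against CT and in YSR against CT and 3 in SS against YSS with median centring. Without a filter on low values (99 members) they were 2 in SR against CT, 2 in SR against YSR, 2 in SS against YSS, 1 in the difference of the yoked contrasts and 1 in the F test. With quantile normalization they were 3 in SS against CT, 1 in SR against YSR and 2 in the F test. In fits of 2 groups only they were 1 in SS against CT and 0 in YSR against CT. With the replicate number as a block they were 1 in SS against CT, 0 in YSR against CT and 1 in YSS against CT. The mean over the clusters of a symbol gave 0 in YSR against CT, and no variance moderation 1 in SR against YSR. Arrays with Kl under bioB, which leave 1 YSR array assumed to vary like the other groups, gave 1 in SS against CT, 1 in SR against SS, 1 in YSS against CT, 1 in the difference of the yoked contrasts and 1 in the F test. The cause was not tested.

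Leaving out each array gave 0 to 2 in SS against CT (2 without CT1 or SS2, 1 without CT2, CT6, SS1, SS6, YSR1, YSR2 or YSS1), 0 to 2 in SR against SS (2 without SR6, 1 without SS1 or SS6), 0 to 4 in YSR against CT (4 without YSR2, 3 without CT3, 2 without CT5, 0 without CT2, CT4 or YSR3), 0 to 5 in YSS against CT (5 without CT5 or YSS1, 4 without CT3, CT4 or YSS3, 1 without CT1 or CT6, 0 without YSS2), 0 to 1 in YSR against YSS (1 without YSS3), 0 to 1 in SR against YSR (1 without CT2, YSR1 or YSR2), 0 to 4 in SS against YSS (4 without SS6 or YSS1, 2 without CT1, CT5 or SS1, 0 without SS2 or SS4), 0 to 1 in the difference of the yoked contrasts (1 without SR6, SS1 or SS6) and 0 to 3 in the F test (3 without SS6, 2 without CT3, 1 without CT1, YSR1, YSR2 or YSS1). The 39 pairs of arrays that share a replicate number had residual correlations from -0.687 to 0.642 (median -0.115), and were not used to pair the rats. The median correlation of member pairs was 0.52 with median centring, 0.35 with quantile normalization, 0.40 with Kl arrays left out and 0.41 to 0.46 without single arrays, settings chosen after seeing the data. Precision is limited by 3 rats in each yoked group.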
